A study of Mus musculus with 13 samples.

Results

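The 10 genes described here encode insulin-like growth factor 1 (Igf1), its receptor (Igf1r), 6 IGF-binding proteins (Igfbp2 to Igfbp7) and the proteases Pappa and Pappa2. They were taken by symbol from the 32285 genes counted in each library of a single-cell RNA-seq study of mouse mammary fibroblasts, and all 10 were found. IGF1 is a secreted growth factor made largely by stromal cells in the mammary gland, where it acts on the epithelium through the receptor tyrosine kinase IGF1R and is needed for ductal growth. Most secreted IGF1 is held by IGF-binding proteins, which keep it from the receptor, carry it or anchor it in the matrix. PAPP-A and PAPP-A2 are metalloproteases that cut particular binding proteins, PAPP-A mainly IGFBP4 and PAPP-A2 mainly IGFBP5 and IGFBP3, and so free the growth factor. IGFBP7 binds IGF1 only weakly and also binds activin and matrix proteins.

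The 13 libraries fell into 9 groups. Wild-type C57BL/6 females gave 1 library each at puberty (4 weeks), as adult virgins (9 weeks), at day 14.5 of pregnancy, day 10 of lactation and day 4 of involution, each from 2 pooled females. Further wild-type females received placebo pellets or pellets of medroxyprogesterone acetate (a progestin) with estradiol (MPA+E) and were collected at 9 weeks, with 2 libraries per group, each from 2 females. All of these libraries held stroma sorted as Lineage- CD24- cells. The other 4 libraries came from 2 raGFP-Wnt1 mice (Pdgfra-GFP KI/+ MMTV-Wnt1 T/+, mixed C57BL/6 and FVB), in which the MMTV promoter drives Wnt1 in mammary epithelium. Each of these mice gave GFP+ cells from hyperplastic gland and from tumor, mouse 1 at 45 weeks and mouse 2 at 17 weeks. Strain, sort and age changed together with the group between the wild-type and raGFP-Wnt1 libraries, and their effects cannot be told apart there.

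Values were unique molecular identifier (UMI) counts summed over the fibroblast barcodes of a library and divided by all UMIs of those barcodes to give CPM. Fibroblasts numbered 4236 to 11951 per library, with a median of 3990 UMIs per cell in pregnancy, the lowest, and 20256 in tumor 2, the highest. The summed level of 4 fibroblast markers (Dcn, Lum, Pdgfra, Col1a2) ranged from 17212 to 26440 CPM. Barcodes were kept by their Dcn, Lum and Col1a2 UMIs, so the presence of these genes was fixed in advance and is no check of purity. Epithelial marker RNA (Krt8, Krt18, Krt14 and Itga6, with Epcam at 0 by the choice of barcodes) reached 37.7 CPM in pregnancy and at most 3.43 CPM in the other libraries. A stage cluster of 150 cells led by Acta2, Krt14 and Cnn1 stayed in the sums, and 141 of these cells were in the pregnancy library. Its part in the pregnancy levels of the members is not given here. Milk protein RNA, an epithelial product, was at 872 CPM in lactation, 39.1 CPM in pregnancy, 13.4 CPM in involution and at most 0.138 CPM elsewhere. At such levels, taking these genes out of the totals can hardly move a stage ratio, so nothing is read from that setting. The part of RNA from milk-making cells in the stage ratios of Igfbp2 and Igfbp3 was not tested. Any 2 libraries shared 5 to 51 cell barcode sequences. Immediate-early genes, a sign of dissociation stress, summed to 40134 and 33795 CPM in hyperplasia and to 19696 and 13599 CPM in tumor. They summed to 14947 CPM in puberty and 19559 CPM in adult gland. Their part in the differences of hyperplasia from normal gland and from tumor was not tested. In such summed values, fewer cells of a type and less RNA per cell cannot be told apart, so levels were also taken within fibroblast classes. The classes were clusters named from marker lists: progenitor-like (Pi16, Dpp4, Cd55), preadipocyte-like (Fabp4, Cd36, Lpl), ECM remodeling-like (Crabp1, Mmp3, Lox), lobular-like (Bmp5, Thbs4, Cilp), adipogenesis-regulatory-like (Gdf10, Clec11a, F3) and, in raGFP-Wnt1 mice, myofibroblastic-like (Acta2, Tagln, Lrrc15). Tumor 2 stood apart in makeup: 65.1% of its fibroblasts were myofibroblastic-like and 2.53% progenitor-like, against 38.8% and 23.3% in tumor 1.

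In GRCm38, Igfbp2 (chr1:72824503-72852474, plus strand) and Igfbp5 (chr1:72857932-72874884, minus strand) lie tail to tail with 5457 bases between them. Igfbp3 lies at chr11:7206086-7213923 on the minus strand and Igf1 at chr10:87858265-87937042 on the plus strand. The 250 bases before the RefSeq start sites of the 3 binding-protein genes whose levels moved most between groups are printed here, since 2 of them moved under ovarian hormones and 2 in the tumor. Capitals mark the motifs that were searched for and found: a TATA-like TATATA 30 bases before the Igfbp3 start (chr11:7213924-7214173), a TATTTAA 51 bases before the Igfbp5 start (chr1:72874866-72875115), and an AGAACA, a half-site letter pattern of the steroid receptor group that binds progestins, 206 bases before the Igfbp2 start (chr1:72824230-72824479). The sequences are from RefSeq on GRCm38.p6, 5′ to 3′ on the strand of the gene, and the last bases of the Igfbp5 window lie in an exon of the GENCODE annotation. Igfbp2 has a further start site, whose window (chr1:72825137-72825386) holds none of the motifs searched for and is not printed.
Igfbp3: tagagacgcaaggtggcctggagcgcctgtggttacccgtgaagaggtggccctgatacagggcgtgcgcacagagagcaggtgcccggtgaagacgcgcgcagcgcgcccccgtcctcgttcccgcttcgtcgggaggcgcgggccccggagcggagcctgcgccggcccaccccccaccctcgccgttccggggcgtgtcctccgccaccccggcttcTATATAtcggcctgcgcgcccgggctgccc
Igfbp5: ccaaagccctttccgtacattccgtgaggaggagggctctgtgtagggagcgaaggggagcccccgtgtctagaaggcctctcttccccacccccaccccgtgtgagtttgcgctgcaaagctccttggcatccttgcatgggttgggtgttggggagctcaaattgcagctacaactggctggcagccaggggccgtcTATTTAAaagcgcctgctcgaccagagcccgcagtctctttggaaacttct
Igfbp2: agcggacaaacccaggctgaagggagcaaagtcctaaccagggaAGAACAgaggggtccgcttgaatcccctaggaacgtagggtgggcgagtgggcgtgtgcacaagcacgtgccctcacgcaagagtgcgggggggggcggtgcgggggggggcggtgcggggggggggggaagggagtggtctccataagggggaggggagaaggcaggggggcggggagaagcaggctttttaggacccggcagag

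The motifs, each read on both strands, were AGAACA (in 16.1% of the 32851 mouse windows of the same length), AGGTCA, a half-site of estrogen and other nuclear receptors (14.0%), CTTTGA, the core bound by TCF and LEF factors of Wnt signaling (13.8%), TATAAA (12.4%), TATATA (5.25%) and TATTTAA (4.18%). AGGTCA and CTTTGA were each found in the windows of Igf1 and Igf1r, TATAAA in those of Igfbp4 and Igfbp6, and none of the motifs in those of Igfbp7 and Pappa2. These matches describe letters in a window and not binding.

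The plot of levels by library shows all 10 genes. Igf1 lay between 90.6 CPM in MPA+E 1 and 423 CPM in involution, and Igf1r between 42.6 CPM in tumor 2 and 106 CPM in hyperplasia 1. Igfbp2 had the widest range of the binding-protein genes as a fold, from 1.70 CPM in puberty to 1605 CPM in tumor 1. Igfbp5 ranged from 265 CPM in tumor 2 to 2779 CPM in hyperplasia 2, and Igfbp6 from 417 CPM in tumor 2 to 3836 CPM in MPA+E 1. Pappa stayed under 11 CPM and Pappa2 under 9 CPM in every library.

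**Figure D1:**
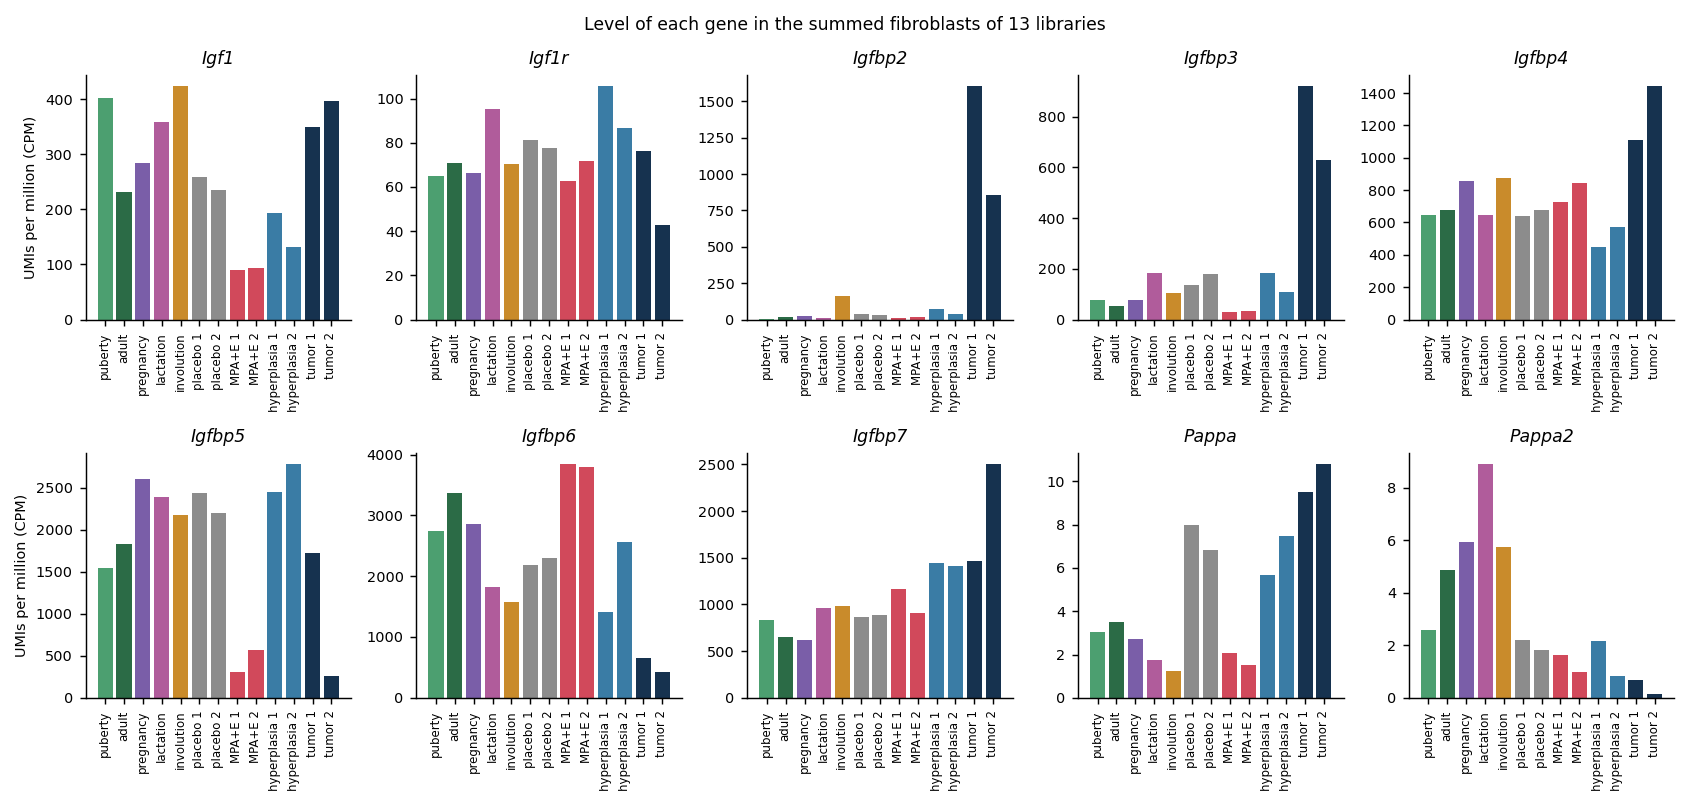
Level of each of the 10 genes (y axis, CPM over fibroblasts, a separate scale per panel starting at 0) in each of the 13 libraries (x axis); each bar is 1 library. Igfbp2 stands at 1605 and 856 CPM in the 2 tumor libraries and at most at 161 CPM elsewhere, and Igfbp5 is at 309 and 572 CPM in the MPA+E libraries against 2441 and 2202 CPM in placebo.

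The fibroblast classes carried different members. The progenitor-like class was not cut alike in the 2 experiments. A hormone cluster with Tgm2 and Pgr among its leading genes was in it, while a stage cluster of 5758 cells led by Pgr, Il31ra and Tgm2 was left unnamed. The class held 18.4% to 26.9% of stage and 35.4% to 41% of hormone fibroblasts. The means that follow join both experiments and include the MPA+E libraries. Over the 9 stage and hormone libraries, Igfbp5 averaged 4381 CPM in progenitor-like cells and 131 CPM in ECM remodeling-like cells, the highest and the lowest of the 5 classes. Igfbp7 ran the other way, at 256 CPM in progenitor-like and 2518 CPM in adipogenesis-regulatory-like cells. Igfbp2 had a mean of 151 CPM in ECM remodeling-like cells and at most 10.9 CPM in the other 4 classes. With cells assigned by marker score in place of clusters, ECM remodeling-like and lobular-like cells had 95.9 and 95.5 CPM, so its restriction to 1 class depended on the clustering. Igfbp3 was highest in adipogenesis-regulatory-like cells (372 CPM), followed by lobular-like cells (149 CPM). Igf1 was lowest in progenitor-like cells (103 CPM) and highest in adipogenesis-regulatory-like cells (446 CPM), and Igf1r was at 94.0 and 99.6 CPM in progenitor-like and lobular-like cells and at 54.4 to 56.5 CPM in the other 3. Igfbp4 had its lowest mean in lobular-like cells (197 CPM) and its highest in adipogenesis-regulatory-like cells (1106 CPM), and Igfbp6 went from 1142 CPM in ECM remodeling-like to 3964 CPM in progenitor-like cells. The classes were cut from these same counts, so these levels are a description with no test. The class with the highest level was the same for 7 of the 10 members with a finer clustering and with cells assigned by marker score (for Igf1r, Pappa and Pappa2 it changed).

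The hormone libraries address what a week of progestin and estradiol does to these genes. Igf1, Igfbp3, Igfbp5 and Pappa fell in MPA+E fibroblasts, to between 0.194 and 0.377 of the placebo level, and no member passed as higher in this fit. These were 4 of the 10 members, where 4.33% of the 15642 genes tested passed an adjusted p of 0.05 (edgeR quasi-likelihood test, 2 against 2 libraries) 1.64% being called lower and 2.69% higher. The median log2 fold change of the members was −0.99, against 0.005 over all genes.

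Igf1, the ligand, was at 259 and 234 CPM in placebo and at 90.6 and 93.7 CPM in MPA+E. Both treated libraries lay under both controls, and the log2 fold change was −1.41 ± 0.105 (SE, edgeR, adjusted p = 0.00745). Igfbp3, which carries IGFs in the blood and in tissue fluid, was at 135 and 181 CPM in placebo and at 30.1 and 34.2 CPM in MPA+E. Its log2 fold change was −2.29 ± 0.22 (edgeR, adjusted p = 0.0118), again with no overlap of the groups, as for 43.4% of all genes at 1 CPM or more. Igfbp5, a matrix-associated binding protein, went from 2441 and 2202 CPM to 309 and 572 CPM. The treated libraries differed from each other by more than the controls did, and the log2 fold change was −2.37 ± 0.345 (edgeR, adjusted p = 0.0321). Pappa stood at 7.98 and 6.85 CPM in placebo and at 2.07 and 1.54 CPM in MPA+E, a log2 fold change of −2.03 ± 0.17 (edgeR, adjusted p = 0.00926). These calls leaned on both placebo libraries. Without placebo 1 or placebo 2 the log2 fold changes stayed negative, but the edgeR adjusted p became 0.056 and 0.0596 for Igf1, 0.123 and 0.117 for Igfbp5, 0.0671 and 0.0644 for Pappa, and 0.0446 and 0.0502 for Igfbp3.

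The other 6 members did not pass the test. Igfbp6, a binding protein with a preference for IGF2, stood at 2178 and 2304 CPM in placebo and at 3836 and 3788 CPM in MPA+E. Its log2 difference was 0.77 ± 0.15 (edgeR, adjusted p = 0.0617). It passed with limma-voom (adjusted p = 0.0453) and with DESeq2 (adjusted p = 7.7e-06). Igfbp2 was at 41.1 and 31.4 CPM against 8.72 and 18.8 CPM, with a log2 difference of −1.36 ± 0.39 (edgeR, adjusted p = 0.154), and passed with DESeq2 (adjusted p = 0.00347). Its value moved with the treated libraries, to −0.89 without MPA+E 1 (adjusted p = 0.0194) and −2.09 without MPA+E 2 (0.00372). The receptor gene Igf1r was at 81.2 and 77.8 CPM in placebo and at 62.7 and 71.9 CPM in MPA+E (edgeR, adjusted p = 0.444). Igfbp4 (643 and 679 against 727 and 846 CPM), Igfbp7 (867 and 889 against 1163 and 911 CPM) and Pappa2 (2.22 and 1.83 against 1.63 and 0.987 CPM) had edgeR adjusted p-values between 0.316 and 0.482.

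Of 30 other genes of the IGF axis (IGF2, insulin and their receptors, adaptor and kinase genes, growth hormone signaling, and the stanniocalcins that inhibit PAPP-A), 27 could be tested. Grb10, an adaptor that restrains the insulin and IGF1 receptors, was at 156 and 145 CPM in placebo and at 106 and 95.5 CPM in MPA+E. It was the only one of the 27 to pass, with a log2 fold change of −0.57 (edgeR, adjusted p = 0.0409). This count is near the share of all genes called in this fit, 4.33%. Grb10 no longer passed when any 1 of the 4 libraries was left out or with no filter on low counts (edgeR, adjusted p = 0.0607). The median of the 27 was −0.06.

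**Figure D2:**
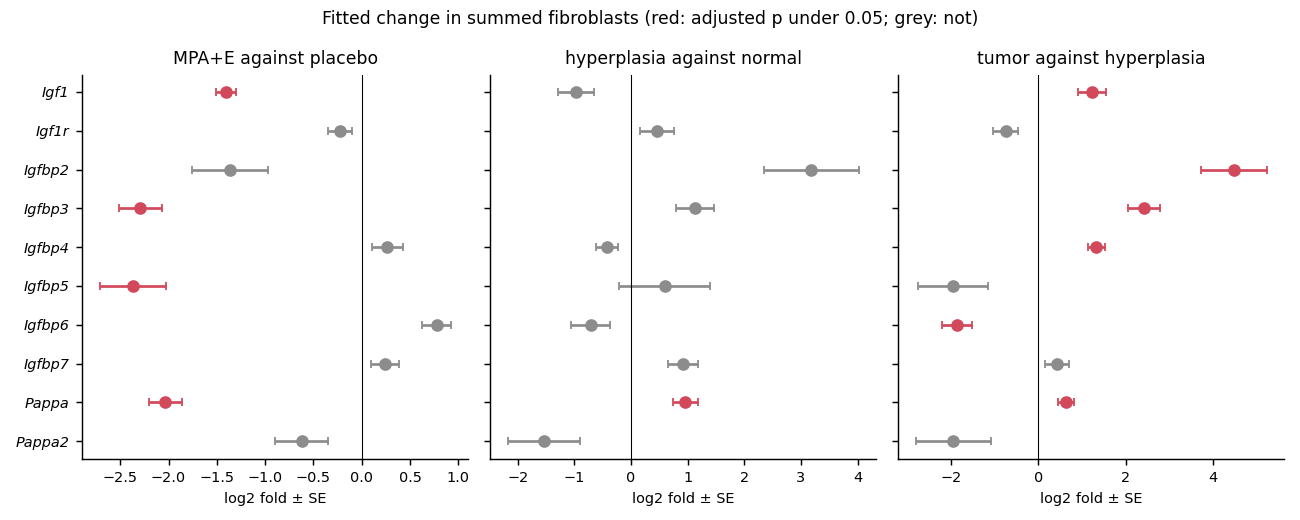
Log2 fold change (x axis, mean ± SE of the fit) of each of the 10 genes (y axis) in MPA+E against placebo, hyperplasia against normal gland and tumor against hyperplasia; points in red have an adjusted p under 0.05. In MPA+E the 4 called genes lie between −2.37 and −1.41, and in tumor 5 genes are called higher and Igfbp6 lower.

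The same comparison was then made class by class. Progenitor-like cells were 38.0% and 40.5% of placebo and 35.4% and 41.0% of MPA+E fibroblasts, lobular-like cells 4.44% and 5.99% against 9.28% and 2.10%, and adipogenesis-regulatory-like cells 15.7% and 16.3% against 14.6% and 11%. In 5 classes with enough cells, 20 of 45 member-by-class tests passed (edgeR, each class fitted over all its genes). The share of all genes called was 12.0% in progenitor-like, 3.53% in preadipocyte-like, 1.08% in ECM remodeling-like, 2.80% in lobular-like and 3.52% in adipogenesis-regulatory-like cells. The largest cluster of the progenitor-like class was led by Ctla2a, Tgm2 and Cxcl13 and the next by Ecscr, Cldn11 and Uchl1, and neither had any of the class's markers among its top 10 genes. The first held 1139 and 1394 cells in placebo and 1472 and 2437 in MPA+E, and the second 623 and 883 against 268 and 1052. The part of this makeup in the changes within the class was not tested.

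Igf1 fell in 4 of the 5 classes. In progenitor-like cells it went from 154 and 170 CPM in placebo to 24.8 and 25.4 CPM in MPA+E, a log2 fold change of −2.64 (edgeR, adjusted p = 0.00118). Preadipocyte-like cells went from 250.2 and 221 CPM to 55.6 and 54.5 CPM (−2.11). Adipogenesis-regulatory-like cells fell from 439 and 396 CPM to 119.5 and 112 CPM, and lobular-like cells from 376.5 and 321 CPM to 109 and 88.9 CPM (−1.77). ECM remodeling-like cells had 397 and 303 CPM in placebo and 248 and 244 CPM in MPA+E, with a log2 difference of −0.56 that did not pass (edgeR, adjusted p = 0.215), and this class was not tested against the others. All 4 Igf1 calls remained when any 1 library was left out. In progenitor-like cells thinned to 2000 UMIs each, 19.9% and 21.7% held an Igf1 UMI in placebo and 3.86% and 3.89% in MPA+E. Among thinned barcodes of other cell types the share was 0.473% (Schwann), 0.655% (epithelial), 1.34% (pericyte), 7.33% (endothelial) and 9.45% (immune). The MPA+E values thus lay within the range of these cell types. Without thinning, the shares were 56.7% and 56.6% against 16.6% and 13.7%, and 2.90% in epithelial barcodes. The median depth was 16357 and 14294 UMIs in placebo progenitor-like cells, 19342 and 11370 in MPA+E and 8295 in epithelial barcodes.

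Igfbp5 fell in 3 classes. Progenitor-like cells, where it is highest, went from 4911 and 4049 CPM to 488 and 924 CPM (log2 fold change −2.60, edgeR, adjusted p = 0.00982). Adipogenesis-regulatory-like cells went from 849 and 647 CPM to 112 and 147 CPM (−2.45) and lobular-like cells from 327 and 289 CPM to 33.05 and 51.9 CPM (−2.85). In preadipocyte-like cells the values were 829 and 941.5 CPM against 429 and 632 CPM (−0.75, adjusted p = 0.227), and in ECM remodeling-like cells 65.1 and 68.4 CPM against 41.2 and 46.8 CPM (−0.66, adjusted p = 0.178). The 3 calls held without any 1 library. Thinned to 2000 UMIs, 87.4% and 83.4% of placebo progenitor-like cells held an Igfbp5 UMI, against 32.2% and 43.2% in MPA+E. Endothelial barcodes, whose median depth was 2365.5 UMIs, had the lowest share of the other cell types, 8.16%. The rest ran from 14.4% (immune) to 79.2% (epithelial). Without thinning, the shares were 94.8% and 92.4% against 54.9% and 60.7%, and 9.96% in endothelial barcodes.

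Igfbp3 fell in progenitor-like (113.5 and 171.5 to 35.9 and 38.4 CPM), preadipocyte-like (104 and 145.0 to 13.5 and 26.4 CPM), lobular-like (77.3 and 118 to 13.45 and 28.6 CPM) and adipogenesis-regulatory-like cells (537 and 559.6 to 108 and 118 CPM), by log2 values of −1.90, −2.65, −2.34 and −2.21. In ECM remodeling-like cells it was at 24.5 and 31.8 CPM against 4.51 and 10.1 CPM (−1.96, adjusted p = 0.113). The lobular-like call was lost without placebo 2 (edgeR, adjusted p = 0.123), and the preadipocyte-like call without placebo 1 or 2 (0.0673 and 0.135).

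Igfbp6 moved the other way in the same 4 classes. It rose from 1545 and 1451 CPM to 4273 and 4138 CPM in preadipocyte-like cells (log2 fold change 1.47, edgeR, adjusted p = 0.00926), from 1618 and 1860.0 CPM to 4028 and 3777 CPM in lobular-like cells (1.21), from 1388 and 1505 CPM to 3195 and 3008 CPM in adipogenesis-regulatory-like cells (1.16) and from 3124 and 3218 CPM to 4934 and 5195 CPM in progenitor-like cells (0.73, adjusted p = 0.0415). In ECM remodeling-like cells it was at 1365 and 1345 CPM against 1230.0 and 1095 CPM (−0.285, adjusted p = 0.474). None of these 4 calls held without placebo 1 or without placebo 2, with adjusted p-values of 0.0593 to 0.21, and the progenitor-like call was also lost without MPA+E 2 (0.0773).

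The remaining calls were each limited to 1 or 2 classes. Igfbp7 rose in progenitor-like cells, from 185 and 212 CPM to 757.5 and 489 CPM (log2 fold change 1.69 ± 0.22, edgeR, adjusted p = 0.00942), and had log2 differences between −0.35 and 0.19 in the other 4 classes. The share of thinned progenitor-like cells with an Igfbp7 UMI was 23.0% and 24.7% in placebo and 59.5% and 44.4% in MPA+E (62.8% and 61.2% against 92.0% and 76.8% without thinning). It was 4.69% in the 28 immune barcodes and ran from 28.2% (epithelial) to 98.5% (pericyte) in the other cell types. Pappa fell in ECM remodeling-like cells from 27.5 and 21.6 CPM to 1.88 and 2.46 CPM (−3.53, adjusted p = 0.00773) and in preadipocyte-like cells from 7.19 and 7.96 CPM to 2.46 and 1.58 CPM (−1.92, adjusted p = 0.0277). Igfbp2 fell in ECM remodeling-like cells from 217 and 194 CPM to 45.7 and 70.3 CPM (−1.86, adjusted p = 0.0399). Igfbp4 rose in lobular-like cells from 118 and 102 CPM to 219.6 and 211 CPM (1.02, adjusted p = 0.00958). Without placebo 1 the adjusted p was 0.0556 for Igfbp2, 0.0934 for Igfbp4 and 0.0906 for Pappa in preadipocyte-like cells, and without placebo 2 the last 2 were 0.126 and 0.158. The calls of Igfbp7 in progenitor-like and of Pappa in ECM remodeling-like cells held without any 1 library.

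**Figure D3:**
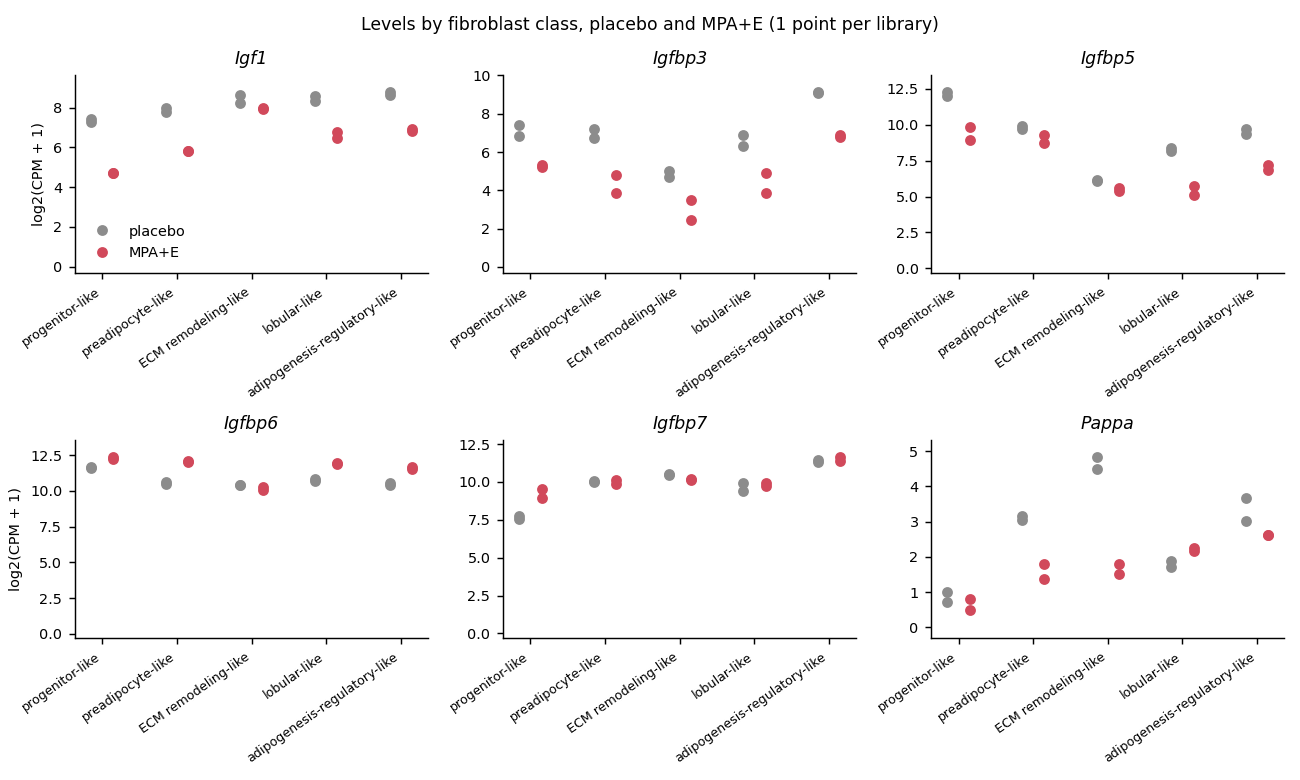
Level of Igf1, Igfbp3, Igfbp5, Igfbp6, Igfbp7 and Pappa (y axis, log2(CPM + 1)) in 5 fibroblast classes (x axis) of placebo and MPA+E libraries; each point is 1 library. Igf1 is at 24.8 and 25.4 CPM in MPA+E progenitor-like cells against 154 and 170 CPM in placebo, and at 248 and 244 CPM against 397 and 303 CPM in ECM remodeling-like cells.

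The hormone effect in progenitor-like cells was set against its average over the remaining 4 classes in a test of the difference (edgeR with a term for the library, 13952 genes, 11.2% called). The classes of a library are not independent of each other. The p-values of this test pool scatter over classes that share libraries, and so overstate what these few libraries can show. The log2 difference was −1.12 ± 0.11 for Igf1 (adjusted p = 7.1e-06) and −1.01 ± 0.15 for Igfbp5 (adjusted p = 0.000341). For Igf1 the progenitor-like value of −2.64 was below that of each other class. For Igfbp5 it was not: lobular-like cells had −2.85 and adipogenesis-regulatory-like cells −2.45, and the average was set by preadipocyte-like (−0.75) and ECM remodeling-like cells (−0.66). For Igfbp7 it was 1.66 ± 0.13 (adjusted p = 1.1e-06). The other 7 members did not pass (adjusted p of 0.107 to 0.951): Igf1r was at −0.19, Igfbp2 at 1.44, Igfbp3 at 0.43, Igfbp4 at 0.06, Igfbp6 at −0.19, Pappa at 0.88 and Pappa2 at 0.09. The Igfbp3 value depended on the treated libraries, at 0.04 without MPA+E 1 and 0.83 without MPA+E 2. The differences of Igf1, Igfbp5 and Igfbp7 held without any 1 library, and that of Igfbp5 was lost when the library term was dropped (edgeR, adjusted p = 0.2). Among the other IGF axis genes, Htra1, a serine protease that cuts IGF-binding proteins, fell within progenitor-like cells (log2 fold change −1.02, adjusted p = 0.00519), as did Grb10 (−0.60, 0.0202), Stc2 (−1.25, 0.0184) and Igf2r, the clearance receptor of IGF2 (−0.74, 0.0355). These were 4 of 25 genes tested, in a class where 12.0% of all genes were called lower or higher. No gene of that list passed in the other 4 classes, where 22 to 24 were tested and 1.08% to 3.53% of all genes were called.

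Hyperplastic gland was compared with puberty and adult gland in 1 limma-voom fit of 6 libraries. Pappa was the only member of 10 to pass, where 14.0% of 16302 genes did, 7.70% being called higher and 6.29% lower. It was at 3.04 and 3.52 CPM in puberty and adult and at 5.66 and 7.47 CPM in hyperplasia, a log2 fold change of 0.96 ± 0.22 (adjusted p = 0.041). The call was lost without puberty (adjusted p = 0.202), without adult (0.148) and without either hyperplasia library (0.156 and 0.185). It was also lost, at a log2 difference of 0.35 (0.579), when the placebo libraries, at 7.98 and 6.85 CPM, were added to the normal gland. Igfbp2 was at 1.70 and 14.2 CPM in normal gland and at 70.5 and 39.3 CPM in hyperplasia, which did not overlap, with a log2 difference of 3.19 ± 0.84 (limma-voom, adjusted p = 0.0518). Placebo 1, at 41.1 CPM, was above hyperplasia 2 and placebo 2, at 31.4 CPM, below it, and with both added the difference was 1.88 (adjusted p = 0.292). It was 1.90 without puberty (0.163) and 4.89 without adult (0.0599). The 2 hyperplasia libraries were also above the 2 normal libraries for Igfbp3 (182.5 and 109 against 76.9 and 51.5 CPM, adjusted p = 0.0714) and Igfbp7 (1442 and 1415 against 834 and 653 CPM, adjusted p = 0.0669), and below them for Igf1 (193 and 131 against 402 and 231 CPM, adjusted p = 0.0856). With the placebo libraries, at 135 and 181 CPM, added, the Igfbp3 difference went from 1.13 to 0.48 (adjusted p = 0.564). The remaining members had log2 differences of 0.46 for Igf1r, −0.43 for Igfbp4, 0.60 for Igfbp5, −0.71 for Igfbp6 and −1.54 for Pappa2 (adjusted p of 0.144 to 0.629). With DESeq2, Igfbp2 (adjusted p = 0.0349), Igfbp3 (0.0111), Igfbp7 (0.0152) and Igf1 (0.0212) passed, in a setting that called 24.6% of all genes. Leaving out tumor 1 or tumor 2, which are in neither of these groups, leaves 1 library in the tumor group of the fit. The members called in those settings are not given. Of all genes at 1 CPM or more, 72.5% had groups that did not overlap in this comparison. The median of the members was 0.53 and that of all genes −0.005. In the wider axis list, 26 genes were tested: Irs2, a docking protein of the insulin and IGF1 receptors, rose from 136 and 189.9 CPM to 411 and 289.6 CPM (1.07, adjusted p = 0.0387), and Grb10 fell from 161 and 152 CPM to 91.65 and 81.6 CPM (−0.89, adjusted p = 0.0285). Neither held without puberty, adult or either hyperplasia library, with adjusted p-values of 0.0986 for Irs2 and 0.112 for Grb10 at the lowest.

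Tumors were compared with the hyperplastic gland of the same mice in that fit. It has no term for the mouse, so its p-values are unpaired, and its error also takes in the difference between puberty and adult. Igfbp2, Igfbp3, Igfbp4, Igf1 and Pappa rose in the tumor and Igfbp6 fell, 6 of 10 members, where 29.3% of 16302 genes passed (15.4% higher, 13.9% lower). The median log2 fold change was 0.52 for the members and −0.013 for all genes. Myofibroblastic-like cells made up 5.63% and 5.25% of the fibroblasts in hyperplasia and 38.8% and 65.1% in tumor.

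Igfbp2 was at 70.5 and 39.3 CPM in hyperplasia and at 1605 and 856 CPM in tumor. Both tumors lay far above both hyperplastic glands, a 22.2-fold difference (log2 fold change 4.47 ± 0.76, limma-voom, adjusted p = 0.0129). Igfbp3 went from 182.5 and 109 CPM to 920.1 and 629.5 CPM (2.43 ± 0.37, adjusted p = 0.00994) and Igfbp4, the main substrate of PAPP-A, from 451 and 571 CPM to 1111 and 1443 CPM (1.32 ± 0.19, adjusted p = 0.00899). Igf1 itself rose from 193 and 131 CPM to 349.5 and 396 CPM (2.34-fold, adjusted p = 0.0351) and Pappa from 5.66 and 7.47 CPM to 9.49 and 10.8 CPM (0.62 ± 0.18, adjusted p = 0.0455). Igfbp6 was the only member called lower in this fit, from 1415 and 2566 CPM to 647 and 417 CPM (−1.87 ± 0.34, adjusted p = 0.0151).

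Of the 4 members that did not pass, Igfbp5 differed between the tumors themselves. It was at 2448 and 2779 CPM in hyperplasia, at 1719 CPM in tumor 1 and at 265 CPM in tumor 2. Its log2 difference was −1.95 ± 0.80 (limma-voom, adjusted p = 0.105), and −3.32 without tumor 1. Igf1r was at 106 and 86.7 CPM against 76.3 and 42.6 CPM (−0.75, adjusted p = 0.0954) and passed with the mouse as a block (adjusted p = 0.0425). Pappa2 was at 2.18 and 0.828 CPM against 0.693 and 0.148 CPM (−1.95, adjusted p = 0.124), the last from 13 UMIs, and passed with that block (0.0311), under which Pappa did not (0.052). Igfbp7 was at 1442 and 1415 CPM against 1461 and 2498 CPM (0.42, adjusted p = 0.271). The calls rested on few libraries. Without hyperplasia 1 or 2 the limma-voom adjusted p was 0.0673 and 0.0696 for Igfbp2, 0.0747 and 0.0504 for Igfbp4, 0.0531 and 0.0727 for Igfbp6 and 0.1 and 0.156 for Igf1, and without hyperplasia 2 it was 0.0594 for Igfbp3. Igf1 was also lost without tumor 2 (0.0617), and Pappa without any library but tumor 1 (0.0838 to 0.258). Without tumor 1, which leaves 1 tumor library, the log2 differences were −1.19 for Igf1r, 0.79 for Igfbp7 and −3.10 for Pappa2.

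The levels within classes are given for these 4 libraries as a description, with no test. Igfbp2 was higher in both tumors in each of the 5 classes present in all 4 libraries. Myofibroblastic-like cells had 335 and 199 CPM in hyperplasia and 3160.0 and 1092 CPM in tumor, and ECM remodeling-like cells 133 and 84.6 CPM against 870.3 and 983 CPM. The myofibroblastic-like class joined a cluster led by Fmod and Col11a1 with one led by Cxcl5, Spp1 and Tnc. The first held 265 and 326 cells in hyperplasia and 2283 and 1287 in tumor, the second 75 and 93 against 1177 and 1469, and the part of this makeup in the values was not tested. Adipogenesis-regulatory-like cells had 4.67 and 5.74 CPM against 282 and 290.6 CPM. The values were 0.656 and 0.814 against 44.7 and 14.2 CPM in preadipocyte-like cells, and 0.218 and 0.226 against 23.6 and 8.56 CPM in progenitor-like cells. The progenitor-like hyperplasia values lie near the floor, since 3 UMIs there come to 0.218 and 0.135 CPM. Tumor 2 had 107 progenitor-like cells. The whole tumor libraries held Igfbp2 at 1605 and 856 CPM, and the part of RNA from other cells in these low values was not tested. Adipogenesis-regulatory-like cells in the tumors were shallow, with a median of 1724 and 1453 UMIs against 10824 and 20256 in their whole libraries. At a finer resolution the class went from 1518 to 1078 cells, and its median depth from 0.509 to 0.785 of that of its libraries, while a separate cluster of 491 cells at 0.102 of that depth appeared. The part of shallow barcodes in the tumor values of this class, for Igfbp2 and the genes that follow, was not tested.

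Igfbp3 was not higher in every class. It was at 188 and 192 CPM in hyperplasia and at 1791 and 823.5 CPM in tumor in myofibroblastic-like cells, but at 1025 and 558 CPM against 178.5 and 297 CPM in adipogenesis-regulatory-like cells and at 168 and 86.7 CPM against 73.0 and 70.05 CPM in preadipocyte-like cells. With the myofibroblastic-like cells left out of the tumor libraries, the Igfbp3 difference shrank to a log2 value of 0.53 (limma-voom, adjusted p = 0.299) and that of Igfbp2 to 2.68 (0.0672). Under that setting Igf1 was no longer called at 1.13 (0.0752), Pappa turned to −1.02 (0.0762), and Igfbp4 and Igfbp6 were still called. Igfbp4 was higher in both tumors in myofibroblastic-like (343 and 317 against 1371 and 1550.0 CPM), ECM remodeling-like (399.6 and 487 against 1373 and 1324 CPM), preadipocyte-like (237 and 200.1 against 973 and 1579 CPM) and adipogenesis-regulatory-like cells (647 and 528.5 against 2439 and 2723 CPM), but not in progenitor-like cells (702.5 and 918 against 515 and 774 CPM).

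Igfbp6 was lower in both tumors in progenitor-like cells, at 952.5 and 1371 CPM against 2164 and 4655 CPM, in preadipocyte-like cells, at 628 and 787 CPM against 1172 and 2019 CPM, and in myofibroblastic-like cells, at 502.5 and 389 CPM against 1522 and 1935 CPM. Igf1 was higher in both tumors in ECM remodeling-like cells (161 and 158 against 456 and 555 CPM) and preadipocyte-like cells (228 and 148 against 446.5 and 522.5 CPM), and the step was smaller in myofibroblastic-like cells (306 and 238 against 391 and 396 CPM). Igfbp5 in progenitor-like cells was at 7791 and 7285 CPM in hyperplasia, 5786 CPM in tumor 1 and 988 CPM in tumor 2. In the same cells Igfbp7 was at 94.5 and 86.4 CPM in hyperplasia and at 369 and 827 CPM in tumor. Of all genes at 1 CPM or more in the whole libraries, 72.7% had groups that did not overlap between tumor and hyperplasia.

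**Figure D4:**
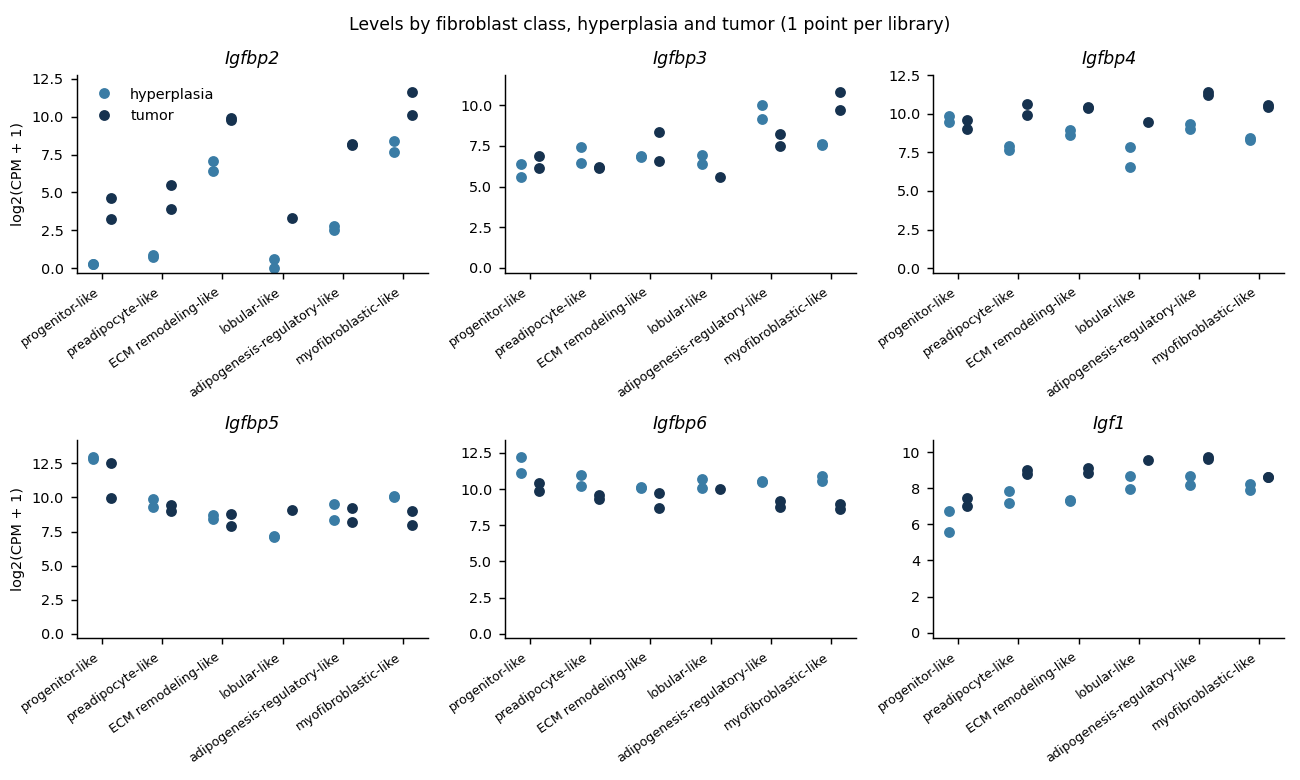
Level of Igfbp2, Igfbp3, Igfbp4, Igfbp5, Igfbp6 and Igf1 (y axis, log2(CPM + 1)) in 6 fibroblast classes (x axis) of hyperplasia and tumor libraries; each point is 1 library, and lobular-like cells of tumor 2 are not shown because there were 4. Igfbp2 is at 3160.0 and 1092 CPM in myofibroblastic-like tumor cells against 335 and 199 CPM in hyperplasia, while Igfbp3 is higher in myofibroblastic-like and lower in adipogenesis-regulatory-like and preadipocyte-like tumor cells.

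Among 26 other IGF axis genes tested, 3 rose and 8 fell in tumor (limma-voom, median log2 fold change −0.27), where 15.4% of all genes rose and 13.9% fell. The genes that rose were Stc2, an inhibitor of PAPP-A, from 8.62 and 7.07 CPM to 32.2 and 23.6 CPM (1.83, adjusted p = 0.00838), Socs2, a brake on growth hormone signaling, from 34.4 and 55.1 CPM to 74.0 and 131 CPM (1.19, adjusted p = 0.0341), and the adaptor Grb14 (1.93, adjusted p = 0.0358). Htra1 fell from 683 and 574 CPM to 206 and 208 CPM (−1.59, adjusted p = 0.00501). Of the genes of the relay inside the cell, Pik3ca, Pdpk1, Akt1, Akt2, Grb2, Shc1 and Foxo3 did not pass, with log2 differences between −0.43 and 0.38. Those that fell were Irs2 from 411 and 289.6 CPM to 149 and 128 CPM (−1.32, adjusted p = 0.0156), Pik3r1, the regulatory subunit of PI3-kinase, from 167 and 147 CPM to 67.9 and 54.9 CPM (−1.36, adjusted p = 0.00712), and Irs1 by 0.77 and Foxo1 by 1.68 on the log2 scale. The insulin receptor gene Insr (−0.86) and the growth hormone effectors Stat5a (−0.79) and Stat5b (−1.08) fell as well. None of these 11 calls held without hyperplasia 1 (limma-voom, adjusted p of 0.0519 for Htra1, 0.0652 for Stc2, 0.0686 for Pik3r1 and up to 0.204 for Irs1), and without hyperplasia 2 Htra1 alone did.

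The 5 normal stages had 1 library each, so their values carry exact Poisson intervals for counting error only and no test between stages. Spread between libraries is not in these intervals. The placebo libraries, also from 9-week wild-type females, had Igfbp3 at 135 and 181 CPM against 51.5 CPM in the adult library. They had Igfbp2 at 41.1 and 31.4 CPM against 14.2 CPM, and Pappa at 7.98 and 6.85 CPM against 3.52 CPM. Igf1 lay closer, at 259 and 234 CPM against 231 CPM. The Igf1 level was 402 CPM in puberty, 231 in the adult, 284 at pregnancy, 358 at lactation and 423 at involution, and puberty was 1.74 times adult (95% interval 1.71 to 1.78). Igf1r was at 65.2, 71.0, 66.3, 95.1 and 70.6 CPM in the same order. Igf1 was thus lowest in the adult gland, and Igf1r highest in lactation. Across the 7814 genes compared, 1.37% differed by 2 fold or more between puberty and adult, 0.806% between pregnancy and adult, 6.65% between lactation and pregnancy and 2.48% between involution and lactation.

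Igfbp2 varied most of the members over the stages as a fold. Its level was 1.70 CPM in puberty, 14.2 in the adult, 24.6 at pregnancy, 11.03 at lactation and 161 at involution. Puberty was at 0.12 of adult (0.0948 to 0.15), lactation at 0.449 of pregnancy (0.408 to 0.494), and involution was 14.6 times lactation (13.5 to 15.8). ECM remodeling-like cells, the class with the highest mean, made up 1.91%, 12.6%, 11.7%, 23.4% and 28.9% of fibroblasts in the 5 stages. In a reweighting, each class with at least 50 cells in all 5 libraries counted by its share of cells in the adult library, and smaller clusters were left out. This changes the weights and the cells together, and moved the adult library itself from 14.2 to 19.8 CPM. Under it puberty came to 0.504 of adult and involution to 8.47 times lactation, while pregnancy turned from 1.73 to 0.79 of adult. Within that class Igfbp2 was at 77.8, 147, 106, 3.62 and 496 CPM. Lactation was thus the lowest stage for Igfbp2 in these cells, whereas preadipocyte-like cells had 50.8 CPM in lactation and 21.3 CPM in involution. In the lactation library 87.3% of the 695 Igfbp2 UMIs lay in 10 barcodes, with 161 in a single one.

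Igfbp3 stood at 76.9 CPM in puberty, 51.5 in the adult, 77.3 at pregnancy, 184 at lactation and 103 at involution. Lactation was 2.39 times pregnancy (2.30 to 2.48), or 3.54 times under the same reweighting. The 9-week placebo libraries, at 135 and 181 CPM, lay between the adult and the lactation level. The lactation level was highest in lobular-like cells, at 716 CPM against 60.7, 62.5, 103.5 and 162 CPM at the other stages, and in adipogenesis-regulatory-like cells, at 758 CPM against 264, 184, 288.5 and 533 CPM.

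The other members compared stayed within 2 fold in each of the 4 comparisons. Under that reweighting, involution against lactation turned for Igf1 (from 1.18 to 0.936), Igfbp5 (0.911 to 1.21) and Igfbp6 (0.859 to 1.04). Igfbp4 ranged from 648 to 875 CPM, Igfbp5 from 1550.0 to 2604 CPM, Igfbp6 from 1568 to 3368 CPM and Igfbp7 from 616 to 986 CPM. Igfbp6 was lowest in involution (1568 CPM) and lactation (1826 CPM). Within progenitor-like cells Igfbp5 was at 4016, 4939, 6375, 6355 and 7376 CPM from puberty to involution. Of the wider axis, Stc2 passed 2 fold: it was at 4.78 CPM in the adult, 14.2 at pregnancy, 78.2 at lactation and 18.4 at involution, so that lactation was 5.52 times pregnancy.

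**Figure D5:**
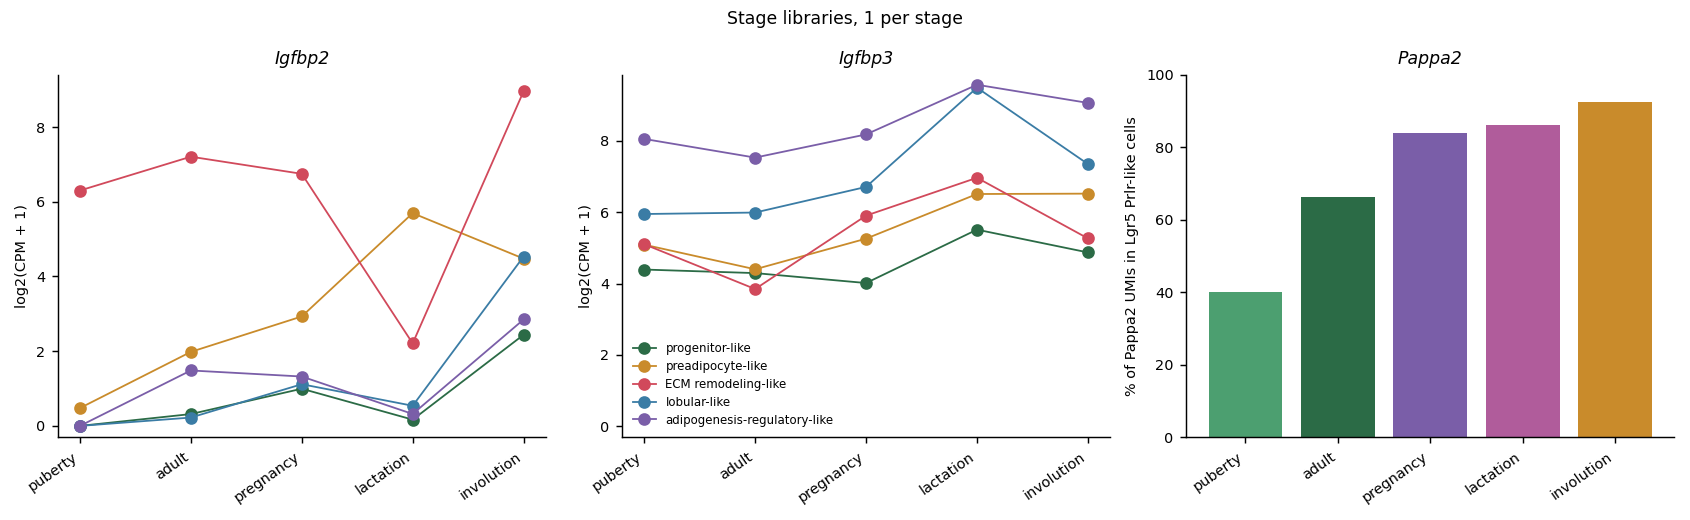
Level of Igfbp2 and Igfbp3 by fibroblast class over the 5 stages (y axis, log2(CPM + 1)), and the share of Pappa2 UMIs that lay in Lgr5 Prlr-like cells (y axis, percent, bars from 0); 1 library per stage. Igfbp2 in ECM remodeling-like cells is at 3.62 CPM in lactation and 496 CPM in involution. The Pappa2 share is 40.0% in puberty (20 cells) and 92.5% in involution (30 cells).

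The proteases had different cells. Pappa was at 3.04, 3.52, 2.74, 1.75 and 1.25 CPM over the stages, and Pappa2 at 2.565, 4.86, 5.93, 8.89 and 5.76 CPM. Of 1754 Pappa2 UMIs in the 5 stage libraries, 1403 (80.0%) lay in 147 of 48890 fibroblasts, the Lgr5 Prlr-like class. This class was led by Ctla2a, Prlr (the prolactin receptor) and Lgr5. Per library these cells numbered 20 (puberty), 35 (adult), 40 (pregnancy), 22 (lactation) and 30 (involution), and held 40.0%, 66.3%, 84.0%, 86.1% and 92.5% of the Pappa2 UMIs. The level within them was 297, 730.4, 1018, 2569 and 1666 CPM. Few barcodes set these values. In the whole libraries, 10 barcodes held 45.6%, 39.3%, 44.3%, 72.9% and 76.6% of the Pappa2 UMIs in the same order. A single barcode held 81 in lactation and 108 in involution. The class had fewer than 50 cells in each library, and no trend over the stages is read from it. Of the Pappa UMIs, 1.62% lay in the same cells. The class was cut from these counts, so its Pappa2 level is a description.

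Genes with the pattern most like a member were sought over 47 sums per class and library of the stage and hormone samples, which share libraries, depth and class cuts. By Pearson r of log2(CPM + 1), Igfbp5 was closest to Opcml (0.910), Igfbp7 to Tspan11 (0.913), Igfbp6 to Cd34 (0.896), Igf1r to Bmp2 (0.893), Igfbp2 to Col7a1 (0.883), Igfbp4 to Osr1 (0.831) and Igf1 to Ifi27 (0.821). Pappa and Pappa2 were too low to be compared. These values describe likeness across classes and were given no test.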

How the data were processed

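The deposited values were raw UMI counts per gene and cell barcode, which the authors made with 10x Chromium Single Cell 3′ libraries and Cell Ranger 6.1.2 on mm10, as filtered matrices of 32285 genes. Raw counts were used here, and no column was left unmapped. Barcodes needed 500 to 7500 genes and no more than 10% of UMIs from mt- genes. A fibroblast had at least 50 UMIs of Dcn, Lum and Col1a2 per 10000 and no UMI of 6 lineage genes (Epcam, Pecam1, Rgs5, Sox10, Ptprc, Myog), which are therefore 0 by construction. This gate and the gene limit stood in for a doublet caller, none of which was run. Total depth was 56551189 to 112550204 UMIs per library.

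Cells were clustered per experiment with Seurat 5.3.0 (resolution 0.3) and named from fixed marker lists, by a rule on marker folds that was set after the cluster tables were seen. Counts were summed per library and class. MPA+E was tested with edgeR 4.0.16 (TMM, filterByExpr, quasi-likelihood), and hyperplasia and tumor with limma 3.58.1 (voom, 6 libraries with puberty and adult as normal gland), under R 4.3.3. P-values were Benjamini-Hochberg adjusted over all genes tested, with a threshold of 0.05. With 2 against 2 libraries an exact permutation test of 1 value cannot go below a two-sided p of 0.333. P-values of the whole-library and within-class tests measure the spread between these libraries. The test of progenitor-like cells against the other classes used class sums with a library term. Its p-values measure the scatter of class differences, pooled over classes that share libraries, while only 2 against 2 libraries are independent. Tests were also run on simulated counts with 200 changed genes, drawn independently for each library or class sum. Such counts hold no scatter shared by the classes of a library, no pairing by mouse and no difference between puberty and adult. The simulation therefore cannot check the p-values for these features of the data. Stages had 1 library each: ratios have exact 95% intervals, and the genes compared had a mean of at least 10 CPM.

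Hyperplasia and tumor of one number came from one mouse, so these numbers pair the libraries (correlation of deviations 0.243 over 7911 genes). UMIs from 3′ ends were not compared between genes. All 10 members were named in each tested comparison over whole libraries, and other IGF axis genes where they passed. Members, lists and tests were chosen with earlier results of these data known. DESeq2 1.42.0 and other alternatives are given in the closing section. The gene closest to Igfbp3 in pattern is not reported here.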

Additional observations from a re-analysis of the deposited data

Results flagged for a closer look

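The hormone effect in progenitor-like cells was tested against the mean of the other 4 classes (edgeR with a library term). Of 10 members and 25 other IGF axis genes, 7 genes passed, where 11.2% of 13952 genes did. The p-values pool scatter over classes that share libraries, and so overstate what these few libraries can show. As log2 differences of MPA+E against placebo, the 7 differences were 1.66 for Igfbp7, −1.12 for Igf1, −1.01 for Igfbp5, −0.90 for Htra1, −0.41 for Igf2r, −0.38 for Grb10 and 0.32 for Shc1. Those of Igf1, Igfbp5, Igfbp7 and Htra1 remained past the threshold when any 1 library was left out. Without placebo 1 or 2 the adjusted p was 0.193 and 0.196 for Shc1, 0.181 and 0.121 for Grb10 and 0.0741 and 0.056 for Igf2r. Shc1 was also lost without MPA+E 2 (0.227). With the library term dropped, Igfbp5 (0.2), Shc1 (0.271), Grb10 (0.096) and Igf2r (0.339) no longer passed. The largest progenitor-like cluster in these libraries was led by genes outside its marker list, and its part in these differences was not tested.

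Barcodes outside the fibroblast gate also carried members, pooled over all libraries and with no test. Epithelial barcodes (793) held Pappa at 140.7 CPM, above the 10.8 CPM of the highest fibroblast library, and 75 Schwann barcodes held it at 84.3 CPM. Igfbp7 was at 3221 CPM in 462 endothelial and at 3003 CPM in 1124 pericyte barcodes, against at most 2498 CPM in a fibroblast library. Igfbp5 was at 2984 CPM in the Schwann barcodes, against at most 2779 CPM. In tumor, summed pericyte markers (Mcam and Notch3, with Rgs5 at 0 by the gate) were at 9.48 and 18.1 CPM in the fibroblasts, against 5.89 and 5.83 CPM in hyperplasia.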

How the results depend on the processing

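The counts of called genes moved more than the members' directions. For MPA+E against placebo, 678 genes were called, 1358 with DESeq2, 2451 with the replicate number as a block and 22 to 900 with 1 library left out (a lone library being assumed to vary like the other group). The hormone labels share replicate numbers but no stated animal or day, the 2 pairs' deviations correlated at 0.650 over 7700 genes, and under this block Igfbp2 (adjusted p = 0.0127) and Igfbp6 (0.0039) were also called. Hyperplasia against normal gland gave 2280 genes, 4017 with DESeq2, 695 with the placebo libraries added and 1 to 4810 with 1 library left out. Tumor against hyperplasia gave 4777, 1256 without myofibroblastic-like tumor cells and 242 to 7120 with 1 library left out. In the 4 raGFP-Wnt1 libraries alone, an alternative chosen after seeing the data, the mouse block gave 4837 and its absence 3187. The difference between progenitor-like and other classes gave 1559, 415 without the library term and 566 to 1195 with 1 library left out. Of the member-by-class tests 20 of 45 passed, with 1.08% to 12.0% of all genes called per class. At a clustering resolution of 0.6, 18 of 42 passed (1.09% to 8.99% of all genes). The replicate block gave 29 of 45, in a setting that called 8.56% to 23.0% of all genes. With no filter on low counts, 26 of 50 passed (4.19% to 9.57%). Fewer passed without placebo 1 or without placebo 2. The cause of these shifts was not tested.

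Directions turned for Pappa (−1.02) and Igfbp7 (−0.09) in tumor without myofibroblastic-like cells. With 1 hormone library left out, uncalled values turned in ECM remodeling-like (Igf1r −0.35 to 0.17), lobular-like (Igfbp7 −0.09 to 0.50, Igf1r −0.28 to 0.03), preadipocyte-like (Igfbp2 −2.94 to 0.05, Igfbp7 −0.14 to 0.02, Igf1r −0.24 to 0.12) and progenitor-like cells (Igfbp2 −0.24 to 1.44, Pappa2 −0.50 to 0.01). The difference between classes turned for Igfbp2 (−0.90 to 2.83), Pappa2 (−0.83 to 0.36) and Igfbp4 (−0.10 to 0.21). Of the stage ratios, 104 of the values under alternatives moved beyond their counting interval and 216 did not. With the larger classes alone, weighted by adult shares, the direction turned for Igfbp2 in pregnancy against adult and for Igf1, Igfbp5 and Igfbp6 in involution against lactation. It also turned for Pappa in lactation against pregnancy (0.638 to 1.1). That setting leaves out the Lgr5 Prlr-like cells, so nothing is read from it for Pappa2. Pappa and Pappa2 are limited by their counts.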

Other observations

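Some values belong to no comparison. In epithelial barcodes, pooled over all libraries, Igf1 was at 3.33 CPM and Igfbp2 at 289 CPM. In pericyte barcodes Igf1 was at 7.12 CPM and Igfbp5 at 1065 CPM, and in endothelial barcodes Igf1 was at 55.3 CPM and Igfbp5 at 85.3 CPM. These barcodes are the few that remained after sorts for other cells.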
